A study of Mus musculus with 51 samples.

Results

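The mouse Zfp genes, whose symbols are short for zinc finger protein, were followed on 51 spotted 2-colour arrays made with RNA of a hybridoma line. Every probe with a single platform gene symbol that begins with Zfp and a digit was taken, whatever its values. This gave 98 probes of 85 genes, out of 7920 non-control features of which 5347 carried a single symbol. The probes lay in 43 of the 48 print blocks, and all 98 kept the same symbol in the RefSeq gene table of assembly GRCm38.p6. Of the genes, 10 had several probes: 4 for Zfp644, 3 for Zfp148, and 2 each for Zfp182, Zfp292, Zfp507, Zfp608, Zfp655, Zfp704, Zfp719 and Zfp800. Such probes are told apart here by the number of their first spot in the deposited table.

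The RNA came from CRL1606, a hybridoma obtained by fusing spleen cells of an immunised BALB/c mouse with the BALB/c myeloma P3-X63-Ag8, which secretes a monoclonal antibody against human fibronectin and was grown in suspension without serum. By the labels, both channels of every array held RNA of this line, so no array compares different cells. RNA of 100 genes was spiked into channel 1 and of another 100 genes into channel 2, at the same amount per gene. The groups were 0, 0.05, 0.1, 0.25, 0.5 and 0.75 pmol with 6 arrays each, and 0.025, 0.15, 0.2, 1 and 2 pmol with 3 arrays each. The series is titled as a test of methods for finding changed genes. The sources used here do not say which genes were spiked, so whether any Zfp gene was among them is not known. Values are log2 ratios, centred on each array's median; the channel in the numerator is not stated, so a ratio is called positive or negative only.

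Most Zfp proteins carry tandem C2H2 fingers, small folds in which cysteines and histidines hold a zinc ion and the exposed helix reads DNA or RNA. Many also carry a KRAB domain, which recruits the corepressor Trim28 and, through it, histone methylation and heterochromatin. The symbol groups genes by this fold rather than by function: the members include KRAB and SCAN domain factors, RNA-binding proteins, a SUMO ligase and a nucleolar protein.

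The arrays differed in coverage. The 1 pmol arrays had 8370 to 14621 measured spots, and the others 15327 to 16862 of 16896. Of the 98 Zfp probes, 90, 44 and 62 were measured on 1 pmol replicates 1, 2 and 3, and at least 92 on every other array. The correlation between the 2 spots of a probe, taken across features, had a median of 0.887, and was lowest, at 0.198, on 0.75 pmol replicate 4. Clustering the arrays on features other than the Zfp probes and the strongest responders gave 6 array sets that only partly cut across the amounts. Each amount with 3 arrays lay wholly in a single set, and only the amounts with 6 arrays were split between sets. The 0 pmol replicates 1 to 3 formed a set of their own, while 0 pmol replicates 4 to 6 shared a set with 0.1 pmol replicates 4 to 6 and 0.75 pmol replicates 1 to 3. No 0 pmol array shared a set with an array of any amount that had 3 arrays, 2 pmol among them. The differences of these amounts from 0 pmol could therefore not be checked within a set. The ratio gives no expression level, so the labelled cell type could not be checked by its markers: the only B-cell or plasma-cell marker with a probe, the B-cell coactivator Pou2af1, had a difference of -1.68 between 2 and 0 pmol (limma adjusted p = 0.0116).

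Without spike, most Zfp probes sat close to 0. The median of the 98 means at 0 pmol was -0.11, against -0.06 over all features. A mean off 0 was called for 15 Zfp probes (15.3%; limma, Benjamini-Hochberg adjusted p under 0.05), 11 negative and 4 positive, against 25.2% of all features (15.2% negative and 10% positive). The lowest was Zfp655 spot 13114, of a gene whose product binds the signalling protein Vav, with a mean of -1.32 (adjusted p = 0.000317). Its 6 arrays gave -0.60, -2.71, -1.08, -1.09, -1.30 and -1.14, all negative, with replicate 2 apart from the rest. Zfp74 had a mean of -1.17 (adjusted p = 0.000687), with 5 arrays from -0.87 to -0.42 and replicate 2 at -3.67. Zfp941 had a mean of -0.91 (adjusted p = 0.000911), with 5 arrays from -0.96 to -0.02 and replicate 3 at -2.76. In these 3 probes a single array lay far below the other 5. Zfp945, with a mean of -1.02 (adjusted p = 0.0023), instead ran from -1.80 to -0.15 and was lower on replicates 4 to 6 (-1.33, -1.40 and -1.80) than on replicates 1 to 3 (-0.44, -0.15 and -1.03).

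The positive offsets at 0 pmol were smaller. Zfp292 spot 2524, of a gene for a large C2H2 protein, had a mean of 0.77 ± 0.36 (SD, n = 6; limma adjusted p = 0.00416) and ran from 0.24 to 1.23. Zfp644 spot 12631, of a partner of the histone methyltransferases Ehmt1 and Ehmt2, had a mean of 0.58 and ran from 0.16 to 1.00 (adjusted p = 0.00395). Zfp142 had a mean of 0.54 (adjusted p = 0.00491), with 0.34, 0.19 and 0.23 on replicates 1 to 3 and 0.74, 0.82 and 0.88 on replicates 4 to 6, so the array sets did not overlap. Zfp319 had a mean of 0.47 and ran from 0.15 to 1.07 (adjusted p = 0.0427). Leaving out any single one of replicates 1 to 5 ended its call, with means from 0.35 to 0.52. Its 1.07, on replicate 4, stands for a deposited log ratio of 0 on an array whose median was -1.07. On that array Zfp719 spot 135, Zfp444, Zfp106 and Zfp62 had the same value, and what it stands for was not tested. On replicates 1 to 3 alone 4 Zfp means were called (5.3% of all features), and on replicates 4 to 6 alone 17 (27.6%). With only replicates 1 to 3, the means of Zfp292 spot 2524 (0.53), Zfp945 (-0.54), Zfp142 (0.26) and Zfp644 spot 12631 (0.30) no longer passed, and with only replicates 4 to 6 they were 1.01, -1.51, 0.81 and 0.86 and all passed. The part of the array set in these offsets was not tested further.

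**Figure D1:**
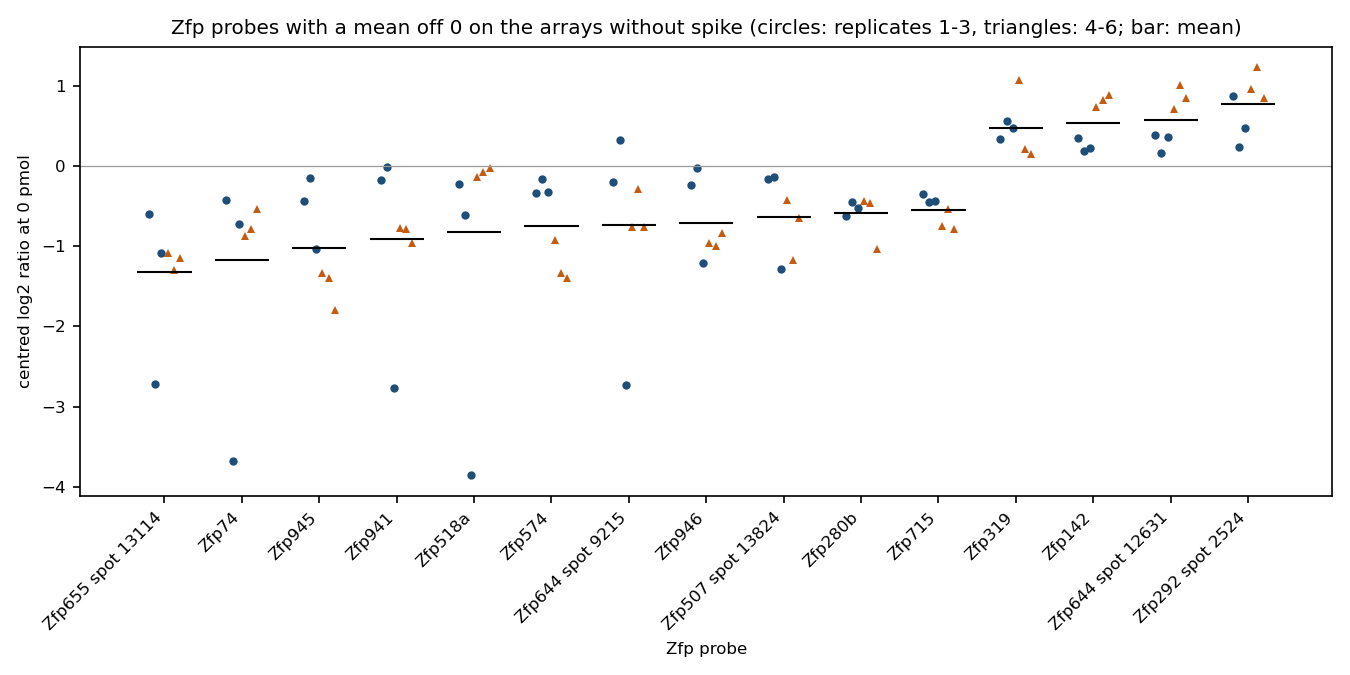
The 15 Zfp probes whose mean at 0 pmol was called off 0, with the centred log2 ratio of each of the 6 unspiked arrays on the vertical axis; circles are replicates 1 to 3, triangles replicates 4 to 6 and bars the means. The means run from -1.32 for Zfp655 spot 13114 to 0.77 for Zfp292 spot 2524, and 5 probes have a single array below -2.

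The spread over the 6 unspiked arrays differed widely among members. The median SD was 0.32 over the Zfp probes and 0.36 over all features. The smallest SDs were 0.10 for Zfp791, whose arrays ran from -0.37 to -0.09, 0.10 for Zfp182 spot 9288, from 0.04 to 0.27, and 0.11 for Zfp330, from 0.00 to 0.31. The largest were 1.5 for Zfp518a, 1.24 for Zfp74 and 1.17 for Zfp639. Zfp518a had 5 arrays between -0.61 and -0.02 and replicate 3 at -3.85, so its spread came from 1 array, as did that of Zfp74. Zfp639 instead ran from -2.27 to 1.27. Its highest array, replicate 6, rested on 1 spot because the other stood at the table's upper limit. The deposited log ratio of that spot was 0. The spots of a Zfp probe differed from each other by a median of 0.17, and those of all features by 0.15. With spike, the median SD of the members stayed between 0.21 at 2 pmol and 0.52 at 1 pmol, beside 0.21 and 0.49 over all features.

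Each spiked amount was compared with the same 6 arrays at 0 pmol, so the 10 comparisons are not independent of one another. At 0.025 pmol 9 of 98 Zfp probes passed (in brackets, the share of all features: 4.98%) in total: 3 on the positive side (1.67%) and 6 on the negative side (3.31%). At 0.05 pmol 5 passed (4.15%), at 0.1 pmol 8 (6.26%), at 0.15 pmol 10 (10.7%) and at 0.2 pmol 9 (8.91%). At 0.25 pmol 14 passed (13.0%), at 0.5 pmol 18 (25.1%) and at 0.75 pmol 7 (7.49%). At 1 pmol only 63 Zfp probes had the 2 measured arrays needed, and 26 of them passed (42.5%), 7 positive (15.9%) and 19 negative (26.6%). At 2 pmol 16 of 98 passed (15.6%), 9 positive (10.3%) and 7 negative (5.33%). As shares of the probes tested these counts are 9.18%, 5.1%, 8.16%, 10.2%, 9.18%, 14.3%, 18.4%, 7.14%, 41.3% and 16.3%, close to the background at most amounts, below it at 0.5 pmol and above it at 0.025 pmol. At 2 pmol the median difference was 0.05 over the Zfp probes and 0.04 over all features, and the median size of the difference was 0.34 against 0.44.

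**Figure D2:**
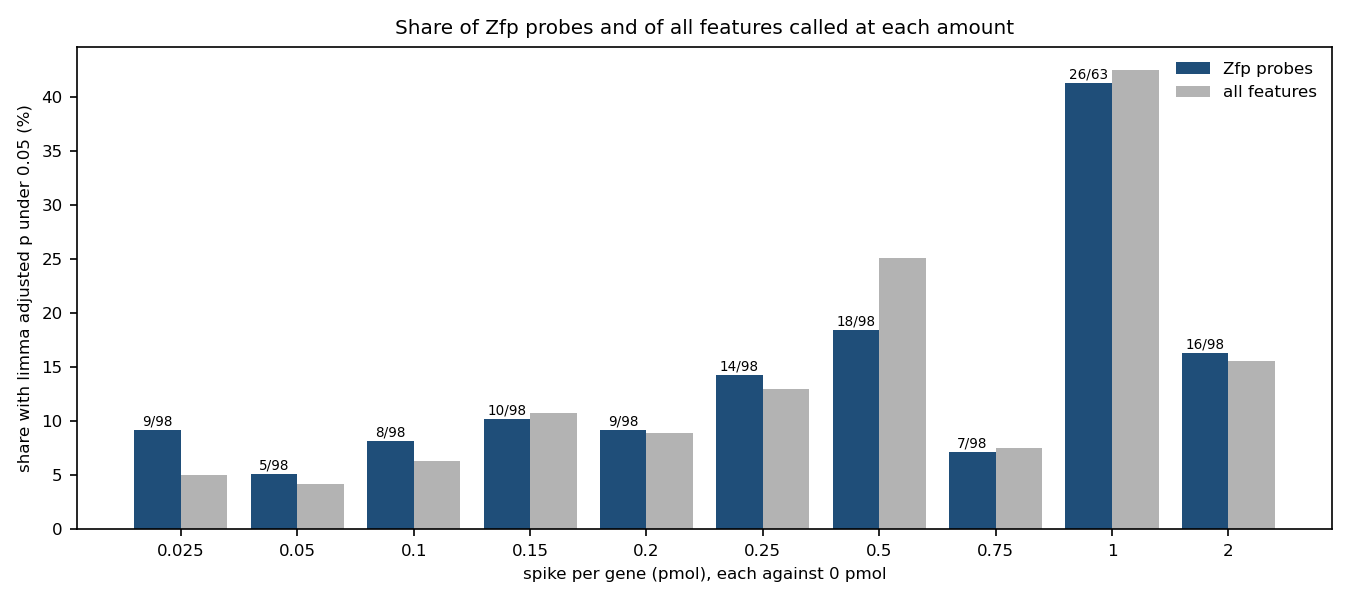
Share of Zfp probes (dark bars, with the count passed over the count tested) and of all features (grey bars) with a limma adjusted p under 0.05 against 0 pmol, in percent, at each of the 10 spiked amounts. The shares of the family run from 5.1% at 0.05 pmol to 41.3% at 1 pmol beside 4.15% and 42.5% of all features.

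Of the 98 probes, 47 (48.0%) passed at no amount, as did 46.6% of all features. A further 33 passed at 1 amount only, for which the share of all features is not given here. Only 5 probes (5.1%; 4.61% of all features) passed at 7 or more amounts, a limit set after the values were seen: Zfp292 spot 12102, Zfp644 spot 5552 and Zfp248 at all 10, Zfp330 at all 9 at which it was tested, and Zfp688 at 7. The first 3 were positive and the other 2 negative on spiked arrays. Next came Zfp946 and Zfp280b with 6 amounts each. Among the 16 probes passed at 2 pmol, 12 had a mean farther from 0 at 2 pmol than without spike (68.5% of all features passed there), while the other 4 had moved from an offset towards 0.

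Zfp292 spot 12102 had the highest difference of the family. On the 6 arrays at 0 pmol it gave -1.0, -0.86, -0.67, -0.30, -0.22 and -0.20 (mean -0.54 ± 0.35, SD). On the 3 arrays at 2 pmol it gave 7.76, 8.21 and 7.82 (7.93 ± 0.24), a difference of 8.47 ± 0.91 (SE; limma adjusted p = 6.29e-10), or a 355-fold change of the ratio. The groups did not overlap, and the spread at 2 pmol was smaller than at 0 pmol. At the smallest amount, 0.025 pmol, the probe already gave 6.88, 6.69 and 7.81, a difference of 7.67.

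Between these ends the probe stayed high with uneven spread. At 0.05 pmol it ran from 2.77 to 7.70 with a median of 7.21, and at 0.1 pmol it gave 7.20, 8.32 and 7.87 on replicates 1 to 3 but 3.89, 3.40 and 3.73 on replicates 4 to 6. The low 0.1 pmol arrays are those that share an array set with unspiked arrays, and within that set the difference was 3.91 (adjusted p = 3.31e-06) against 6.28 over all arrays. At 0.75 pmol the median was 5.01, the lowest of any spiked amount, and the difference was 5.69, or 5.17 within the shared array set (adjusted p = 1.69e-07). At 1 pmol 2 arrays measured the probe, at 16.06 and 12.16, far above all other values; the first rests on 1 spot. All 44 spiked arrays that measured the probe were positive and above every unspiked array. There was no call for a slope on the log2 amount over the spiked arrays (0.26 ± 0.18 SE per doubling, adjusted p = 0.307), and the 2 pmol arrays were 0.80 above the 0.025 pmol arrays (exact permutation test, 2-sided p = 0.2, where 3 against 3 arrays cannot go below 0.1). With the array set as a covariate, the probe passed at 4 of 10 amounts, 0.05, 0.1, 0.75 and 1 pmol. The difference was then 4.01 at 0.025 pmol (adjusted p = 0.105) and 3.21 at 2 pmol (adjusted p = 0.357), and neither passed. Of the 3 neighbours tested on the array, the one printed below, which has no single symbol, passed at 2 pmol with 3.60 (adjusted p = 0.000628), and those above and to the right did not (0.60 and -0.22).

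**Figure D3:**
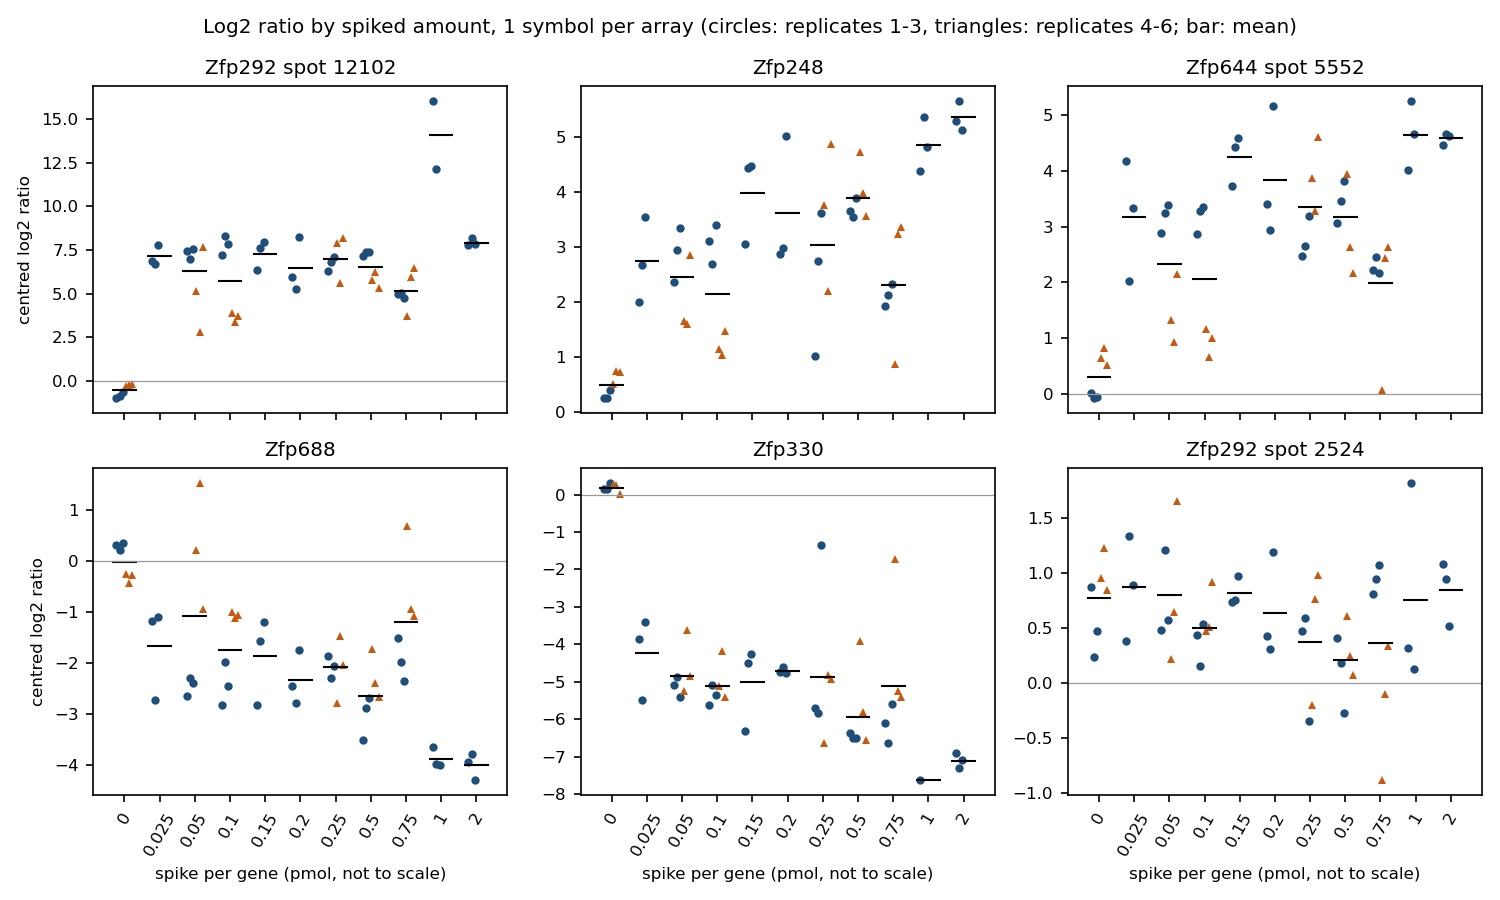
Centred log2 ratio of every array (vertical axis, own scale in each panel) by spiked amount (horizontal axis, categories) for the 5 Zfp probes passed at 7 or more amounts and the other probe of Zfp292; circles are replicates 1 to 3, triangles replicates 4 to 6, bars are means. Zfp292 spot 12102 goes from -0.54 at 0 pmol to 7.93 at 2 pmol and Zfp330 from 0.19 to -7.10, while Zfp292 spot 2524 stays between -0.88 and 1.82 on all arrays.

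The other Zfp292 probe, spot 2524, carries the same platform sequence record in another print block, and it behaved differently. It gave 1.09, 0.94 and 0.52 at 2 pmol against 0.24 to 1.23 at 0 pmol, overlapping groups with a difference of 0.08 (SE 0.35, limma adjusted p = 0.909). It passed in limma at 0 of 10 amounts, and at 0 with an unadjusted p under 0.05. Probe minus probe within an array, spot 2524 differed from spot 12102 by 1.31 on the 6 unspiked arrays. On the 44 spiked arrays that measured both it differed by -6.22. The change was -7.53 (exact permutation test, 2-sided, p = 1.26e-07, or 1.79e-05 adjusted over the 1566 same-gene probe pairs of all features). The test shuffles arrays freely between unspiked and spiked and takes no account of the array sets.

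All 17 pairs of probes of the same gene, in 10 genes, shared their platform record, and 4 pairs changed their difference between unspiked and spiked arrays (exact permutation tests, adjusted p under 0.05 over all same-gene pairs; 7 unadjusted). Over all 1566 same-gene pairs 14.9% did. In Zfp644 the 3 pairs that include spot 5552 did: spot 5552 moved by 3.34 relative to spot 12631 (adjusted p = 4.58e-05) and by 2.30 relative to spot 9215 (adjusted p = 0.00751), and spot 3875 by -2.46 relative to spot 5552 (adjusted p = 0.000892). At 2 pmol, spots 3875, 9215 and 12631 stood at -0.12, -0.09 and 0.16. At 1 pmol spot 12631 gave -1.69, -2.44 and -2.69, a difference of -2.85 (SE 0.26; limma adjusted p = 4.06e-12) on the side opposite to spot 5552 (4.34), while spot 9215 differed by 1.03 (adjusted p = 0.0431) and spot 3875 had 1 measured array, at -1.66. The pair of Zfp655 changed by -1.18 (spot 13030 relative to spot 13114; exact permutation test, adjusted p = 0.0501) and missed the threshold. The deposited files used here hold no probe sequence, so how the probes of a gene differ in their oligonucleotides was not tested.

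**Figure D4:**
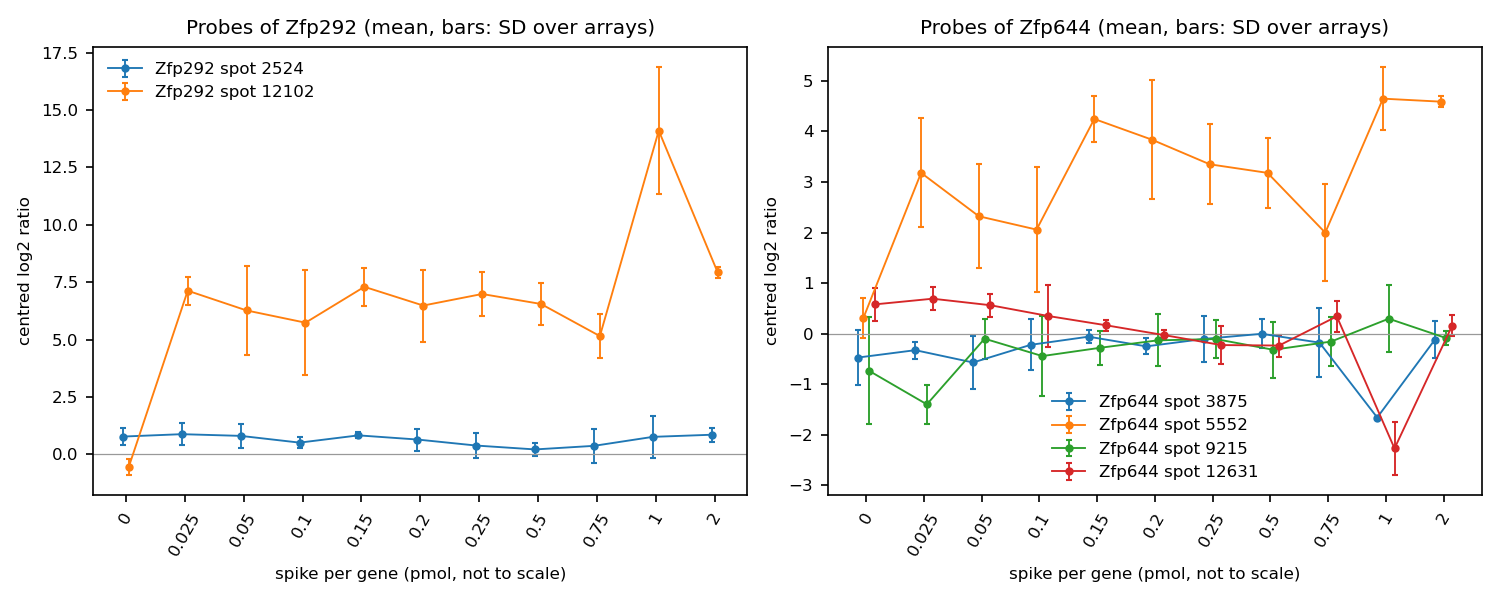
Mean centred log2 ratio with SD over arrays (vertical axis) by spiked amount (horizontal axis, categories) for the 2 probes of Zfp292 and the 4 probes of Zfp644, each in its own colour. In Zfp292 only spot 12102 leaves 0 by more than 1 (7.93 at 2 pmol), and in Zfp644 spot 5552 reaches 4.59 at 2 pmol while the 3 others lie between -0.12 and 0.16 there; at 1 pmol spot 12631 lies at -2.27.

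Zfp644 spot 5552 was the third highest of the family at 2 pmol. At 0 pmol it gave 0.01, -0.08 and -0.06 on replicates 1 to 3 and 0.64, 0.82 and 0.51 on replicates 4 to 6, and at 2 pmol 4.47, 4.66 and 4.63. The difference was 4.28 with a standard error of 0.59 (limma adjusted p = 1.42e-07), and the groups did not overlap. At 0.025 pmol its arrays gave 4.17, 2.03 and 3.34, at 0.15 pmol 3.72, 4.43 and 4.59, at 0.2 pmol 3.40, 2.93 and 5.17 and at 1 pmol 4.02, 5.26 and 4.67. These amounts had differences of 2.87, 3.94, 3.53 and 4.34 and overlap one another. In the groups of 6 the medians were 2.52 at 0.05 pmol (0.94 to 3.39), 3.24 at 0.25 pmol (2.48 to 4.62), 3.26 at 0.5 pmol (2.17 to 3.94) and 2.33 at 0.75 pmol (0.07 to 2.63). All 45 spiked arrays were positive and 43 lay above every unspiked array.

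The 0.1 pmol value of Zfp644 spot 5552 depended on the arrays. It was 2.88, 3.29 and 3.36 on replicates 1 to 3 and 1.16, 0.66 and 1.00 on replicates 4 to 6, a difference of 1.75 from 0 pmol (limma adjusted p = 0.0156). Leaving out replicate 1, 2 or 3 ended the call (1.59, 1.5 and 1.49), and within the array set shared by replicates 4 to 6 and unspiked arrays the difference was 0.28 (adjusted p = 0.43). With the array set as a covariate the 2 pmol difference was 2.06 (adjusted p = 0.376), and the probe passed at 1 of 10 amounts, 1 pmol. The probes printed directly above and below in the same column, Riox2 and Tiparp, also passed at 2 pmol with differences of 2.39 and 3.11, whereas the probes to the left and right did not (0.33 and -0.07); the part of the printing position was not tested.

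Zfp248, a KRAB zinc finger gene, was the second highest of the family at 2 pmol. At 0 pmol it ran from 0.25 to 0.75 (mean 0.48 ± 0.22, SD, n = 6) and at 2 pmol it gave 5.29, 5.66 and 5.13, a difference of 4.88 ± 0.57 (SE; limma adjusted p = 4.07e-09). At 0.025 pmol it gave 2.00, 2.68 and 3.55 and at 1 pmol 4.38, 5.36 and 4.82, and at every amount all of its arrays exceeded the highest unspiked array. The medians were 2.61 at 0.05 pmol, 3.18 at 0.25 pmol, 3.77 at 0.5 pmol and 2.23 at 0.75 pmol, so the values did not climb step by step with the amount. Its slope was nevertheless called, at 0.34 ± 0.09 SE per doubling (adjusted p = 0.00716), and was the highest of the family. The 2 pmol call held under all 20 alternatives tried, at 4.13 with the array set as a covariate (adjusted p = 0.0292). In that fit, however, the probe passed at 1 and 2 pmol only, 2 of 10 amounts. Its 2 pmol difference there is tied to 0 pmol only through 0.1 pmol replicate 2, so that fit is a weak check. Of its neighbours, the one below, B430319G15Rik, passed at 2 pmol (2.40).

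Zfp330, which encodes a nucleolar protein also known as NOA36, had the lowest difference. On the unspiked arrays it was among the steadiest probes, from 0.00 to 0.31 (mean 0.19 ± 0.11, SD, n = 6). At 2 pmol it gave -6.91, -7.30 and -7.09 (-7.10 ± 0.20), a difference of -7.29 ± 0.73 (SE; limma adjusted p = 1.47e-10), or a 156-fold change of the ratio. All 43 spiked arrays that measured it were negative and below every unspiked array.

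With only 0.025 pmol Zfp330 already gave -3.86, -5.47 and -3.39 (difference -4.43). The difference was -5.03 at 0.05 pmol, -5.31 at 0.1 pmol, -5.20 at 0.15 pmol and -4.88 at 0.2 pmol, and then -5.06, -6.13 and -5.30 at 0.25, 0.5 and 0.75 pmol. Amounts next to each other in this series overlapped in their arrays up to 0.75 pmol. The 1 pmol group had 1 measured array, at -7.62, and was not tested. The slope was -0.33 ± 0.10 SE per doubling (adjusted p = 0.0139), the lowest of the family, and did not pass with the array set as a covariate (-0.40, adjusted p = 0.0678). Within the array set shared with unspiked arrays the difference was -5.06 at 0.1 pmol and -6.27 at 0.75 pmol, near or beyond the values over all arrays. The 2 pmol call held under all 19 alternatives tried, at -7.46 with the array set as a covariate (adjusted p = 0.00481). In that fit the probe passed at 6 of 9 amounts, the smallest (-4.59, adjusted p = 0.0457) among them. The 2 pmol difference of that fit is tied to 0 pmol only through 0.1 pmol replicate 2, which makes it a weak check. None of its 4 neighbours on the array passed at 2 pmol (-0.75 to 0.59).

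Zfp688, a KRAB zinc finger gene, was the second lowest at 2 pmol. It gave 0.31, 0.21 and 0.37 on 0 pmol replicates 1 to 3 and -0.26, -0.42 and -0.27 on replicates 4 to 6, and -3.94, -3.79 and -4.29 at 2 pmol. The difference was -4.0 with a standard error of 0.58 (limma adjusted p = 6.11e-07). At 1 pmol it gave -3.64, -3.98 and -4.0, close to the 2 pmol arrays, and at 0.2 pmol -2.45, -2.77 and -1.74. At 0.05 pmol the replicates parted: -2.64, -2.28 and -2.39 on replicates 1 to 3, and 0.23, 1.54 and -0.93 on replicates 4 to 6, with no call (-1.07, adjusted p = 0.233). The probe also missed at 0.025 pmol (-1.65, adjusted p = 0.0987) and 0.75 pmol (-1.19, adjusted p = 0.132). Of 45 spiked arrays 42 were negative, and the slope was -0.32 ± 0.09 SE per doubling (adjusted p = 0.00689).

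Some of the Zfp688 calls rested on few arrays. The call at 0.1 pmol (-1.72) ended without 0.1 pmol replicate 1 (-1.51) or replicate 3 (-1.58), and within the array set shared with unspiked arrays the difference was -0.74 (limma adjusted p = 0.0857). The call at 0.15 pmol (-1.85) ended without 0 pmol replicate 3 (-1.77), 0.15 pmol replicate 1 (-1.37) or replicate 2 (-2.0), and that at 0.2 pmol (-2.31) without 0.2 pmol replicate 2 (-2.09). With the array set as a covariate the 2 pmol difference was -2.46 (adjusted p = 0.125), and the probe passed at 2 of 10 amounts, 0.75 and 1 pmol. A neighbour, the G protein gene Gnas, passed at 2 pmol with -0.93.

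Zfp655 spot 13030 passed at 2 pmol alone of 9 amounts tested. It ran from -1.65 to -0.02 at 0 pmol (mean -0.47 ± 0.62, SD, n = 6) and gave -2.39, -2.81 and -2.76 at 2 pmol, a difference of -2.18 ± 0.45 (SE; limma adjusted p = 0.000307). The groups did not overlap. Its slope of -0.30 ± 0.07 SE per doubling was called (adjusted p = 0.000927). Replicates 1 to 3 of 0.25 and 0.5 pmol share an array set with the 2 pmol arrays. On these the probe gave -0.97, -1.11 and -1.54 at 0.25 pmol and -1.60, -1.94 and -1.96 at 0.5 pmol. On replicates 4 to 6 it gave -0.03, 0.21 and -0.40, and -0.45, -0.16 and -0.10. The part of the array set in these values was not tested further. The second Zfp655 probe, spot 13114, had the lowest unspiked mean of the family and stood at -0.54 at 2 pmol. The difference of spot 13030 with the array set as a covariate was -2.51 (adjusted p = 0.0502), and its neighbour Pkmyt1 passed with -0.83.

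The other 10 Zfp probes passed at 2 pmol differed by about 1 log2 unit or less, apart from Zfp945. Zfp566 went from -0.23 to 0.28 at 0 pmol to 1.20, 0.98 and 0.96 at 2 pmol, a difference of 1.02 ± 0.27 (SE, limma adjusted p = 0.00497) and no overlap. Zfp652, a partner of the corepressor Cbfa2t3, went from -0.23 to 0.42 to -0.98, -0.66 and -1.06 (difference -0.99, adjusted p = 0.00271). At 1 pmol Zfp652 went the other way, at 0.95, 0.61 and 0.96, all above its highest unspiked array. Zfp451, a SUMO ligase, went from -0.32 to 0.20 to -0.68, -1.05 and -0.70 (difference -0.83, adjusted p = 0.0178), and lost its call without 2 pmol replicate 2 (-0.71). In all 3 the probes sat near 0 without spike and every 2 pmol array lay outside the unspiked range.

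Zfp945, Zfp941, Zfp946 and Zfp280b were called negative without spike and lay near 0 at 2 pmol. Zfp945 had a mean of -1.02 at 0 pmol and of 0.26 at 2 pmol, a difference of 1.28 (limma adjusted p = 0.0355). Zfp941 went from -0.91 to 0.07 (0.99, adjusted p = 0.0466) and Zfp946 from -0.71 to 0.11 (0.82, adjusted p = 0.0373). Zfp280b went from -0.59 to 0.32 (0.90, adjusted p = 0.00895), and its call ended without 2 pmol replicate 3 (0.80). The offsets at 0 pmol and these differences share the same 6 arrays, so the offset and the difference are not separate measurements.

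The last 3 were weak. Zfp810, a KRAB zinc finger gene, went from a mean of -0.33 to 0.49 (0.82, limma adjusted p = 0.0411), Zfp354c, of the same kind, from 0.34 to -0.38 (-0.72, adjusted p = 0.0445) and Zfp444, a SCAN domain gene, from 0.23 to -0.86 (-1.09, adjusted p = 0.0499). Of the unspiked arrays of Zfp444, replicate 5 at -1.20 lay below all 3 arrays at 2 pmol and rested on 1 spot, with the other at the upper limit. The highest, replicate 4 at 1.07, had a deposited log ratio of 0 on both spots. The calls of Zfp354c and Zfp945 ended without any single one of the arrays at 2 pmol or of 0 pmol replicates 4 to 6, with differences of -0.77 to -0.63 and 1.13 to 1.33. For Zfp810, Zfp946 and Zfp941 the same held, and also without 0 pmol replicate 3, with differences of 0.73 to 0.88, 0.70 to 0.89 and 0.62 to 1.09; the lowest for Zfp941 is without its low array, 0 pmol replicate 3. The call of Zfp444 ended without any array at 2 pmol or 0 pmol replicates 1 to 4 (-1.26 to -0.92). The 82 probes that did not pass ran from -0.87 to 1.15.

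**Figure D5:**
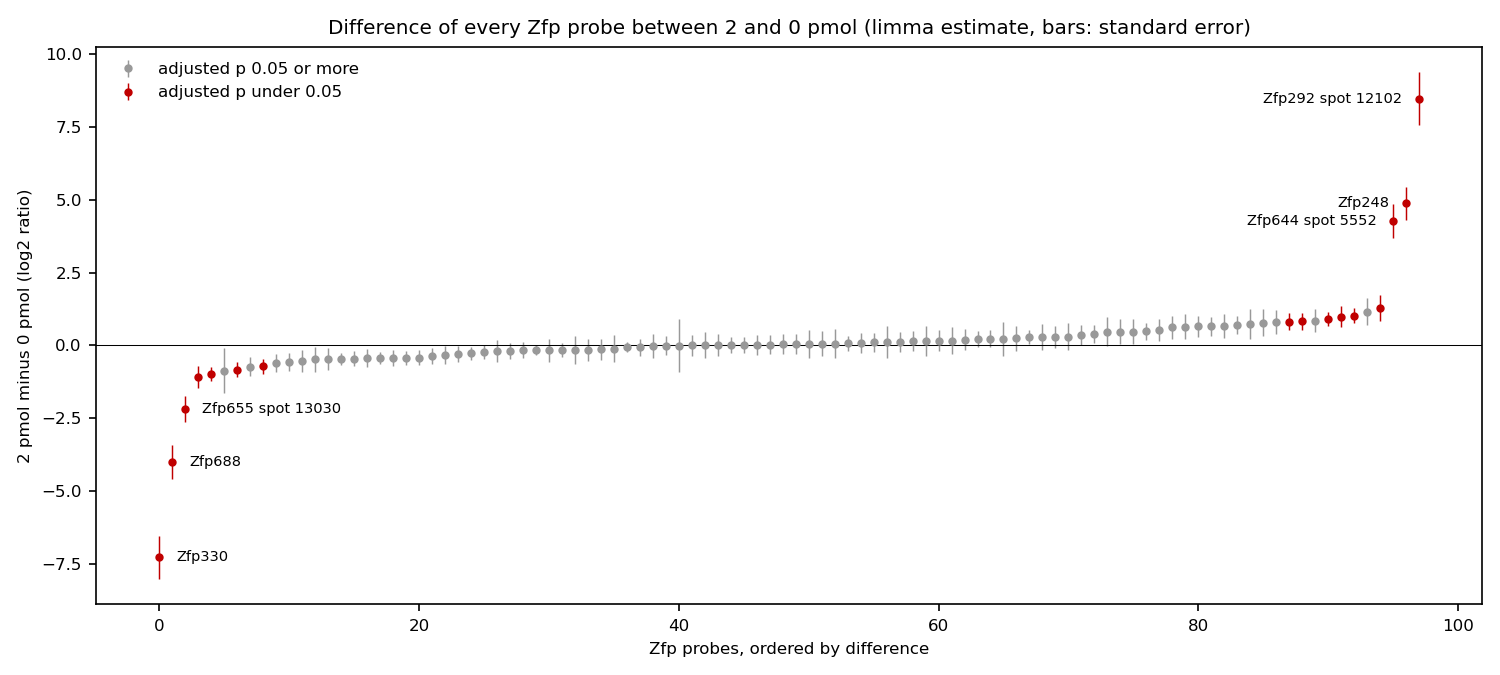
Difference of the mean centred log2 ratio between 2 and 0 pmol for all 98 Zfp probes, ordered by size, with the standard error of the limma fit as bars; red points have an adjusted p under 0.05. The differences run from -7.29 (Zfp330) to 8.47 (Zfp292 spot 12102), and the 6 labelled probes lie outside the band of -1.09 to 1.28 that holds the others.

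Outside the recurrent probes, the strongest calls at the other amounts mostly rested on single arrays or on low coverage. At 0.025 pmol Zfp446, a SCAN domain gene, gave -0.06, -4.14 and -2.54 (difference -2.08), and the call ended without replicate 2 (-1.13). At 0.05 pmol Zfp275 ran from -1.57 to -0.06 against 0.05 to 1.10 at 0 pmol (difference -1.04). At 0.75 pmol Zfp979 had a difference of -0.71, with 1 array at -1.99 (replicate 4, whose paired spots agreed least) and the other 5 from -0.60 to -0.03. The Zfp979 call ended without that array (-0.42) and without 0 pmol replicate 1, 3, 4, 5 or 6 or 0.75 pmol replicate 2 or 5 (-0.74 to -0.66). At 1 pmol Zfp532 gave -0.81 and -4.62 on the 2 arrays that measured it, a difference of -3.12.

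A slope on the log2 amount was called for 21 of 98 Zfp probes (23.1% of all features), 13 positive (13.0%) and 8 negative (10.1%). Besides Zfp248, Zfp330, Zfp688 and Zfp655 spot 13030, the steepest were Zfp644 spot 12631 (-0.20), Zfp236 (0.23), Zfp638 (0.23), which acts in silencing of unintegrated DNA, and Zfp446 (0.22). Low ratios at the smallest amount carried part of these slopes. Zfp638 gave -0.98, -1.43 and -4.25 at 0.025 pmol and -0.21, -0.17 and -0.30 at 2 pmol, and its slope was not called without 0.025 pmol replicate 3 (0.15). The slope of Zfp446 was not called without 0.025 pmol replicate 2 (0.13). Zfp236 gave -0.81, -1.92 and -0.78 at 0.025 pmol and 0.91, 0.53 and 0.97 at 2 pmol, but its unspiked arrays ran from -1.44 to 1.27 and overlapped both. The 1.27, on 0 pmol replicate 6, rested on 1 spot with a deposited log ratio of 0. The other unspiked arrays reached 0.17 at most, below the 2 pmol arrays. With the array set as a covariate the slopes of Zfp248 (0.49, adjusted p = 0.00142) and Zfp688 (-0.53, adjusted p = 0.000389) still passed. Those of Zfp655 spot 13030 (-0.20, adjusted p = 0.0616), Zfp644 spot 12631 (-0.20, adjusted p = 0.0591), Zfp236 (0.12, adjusted p = 0.269), Zfp638 (0.08, adjusted p = 0.61) and Zfp446 (0.09, adjusted p = 0.55) did not.

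From 0.025 to 2 pmol the amount rose 80-fold, or 6.32 log2 units, and no Zfp ratio moved as far. The 2 pmol mean differed from the 0.025 pmol mean by 1.41 for Zfp644 spot 5552, 2.62 for Zfp248, -2.86 for Zfp330, -2.34 for Zfp688 and -2.31 for Zfp655 spot 13030. In each of these the 3 arrays of one amount lay outside the range of the other (exact permutation test, 2-sided p = 0.1, the smallest that 3 against 3 arrays can give).

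Among the 47 probes that passed at no amount, a share close to that of all features (46.6%), were 3 whose products have roles in B cells; they are named after their values were seen. Zfp318, which controls IgD splicing in B cells, had means from -0.14 to 0.19 over the 11 amounts and passed in limma at 0 of 10 (0 unadjusted). Zfp521 and Zfp423, partners of early B-cell factor, passed at 0 of 10 and 0 of 9 amounts (1 and 0 at an unadjusted p under 0.05; Zfp423 was not tested at 1 pmol), with means from -0.32 to 0.71 and -0.78 to 0.58. The 3 arrays at 2 pmol of Zfp521, at 0.73, 0.44 and 0.97, all lay above its highest unspiked array (0.23), with a difference of 0.70 that did not pass (adjusted p = 0.138).

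Related genes outside the family were compared between 2 and 0 pmol in the same fit, where 15.6% of all features passed. Of 42 probes of other C2H2 factors 3 passed: the lymphoid factors Ikzf2 (3.27), Bcl11b (1.22) and Ikzf1 (-1.17), with a median of 0.10 over the list. Of 13 probes of the repression machinery that KRAB zinc fingers recruit 3 passed: the remodeller Smarcad1 (1.49), the histone methyltransferase Ehmt1 (-1.16) and Uhrf1 (-0.79), which reads methylated DNA. Of 13 probes of the decay of AU-rich mRNA 1 passed, Cnot1 of the deadenylase complex (0.96). Among markers of other cell types, Cd3e (2.02) and Cd28 (-0.68) passed of 2 T, NK and myeloid probes. Of 7 epithelial, stromal, nerve and other probes 4 passed, all with a positive difference (10.3% of all features): Krt18 (4.25), Col1a2 (1.12), Gad1 (1.09) and Syt1 (1.03). Krt18 and Gad1 had means of 4.42 and 1.46 at 2 pmol. By contrast, Bcl11b, Cd3e, Col1a2 and Syt1 had negative means at 0 pmol (-1.19, -1.63, -0.90 and -0.76). At 2 pmol these lay at 0.03, 0.39, 0.22 and 0.27. The part of either list in the Zfp values was not tested.

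The features whose 11 amount means correlated best with those of Zfp330 were Prkaca (r = 0.983), a Fem1c probe (0.980) and Uvssa (0.980), among 4895 features with a symbol and all means. Their own differences at 2 pmol were -7.25, -6.90 and -5.22. The 1 pmol mean of Zfp330 is 1 array; without it the best were Uvssa (0.985), the Fem1c probe (0.983) and Papola (0.982). For Zfp292 spot 12102 they were Pnn (0.971), Platr26 (0.963) and Sh3pxd2b (0.952), with differences of only 1.18, 1.19 and 0.97 at 2 pmol. Without the 1 pmol mean, where Zfp292 spot 12102 is far above its other values, the best were Nkain2 (0.977), Phldb2 (0.970) and Mreg (0.970), with 6.03, 1.41 and 6.97. These correlations are descriptions over amount means of the same arrays.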

How the data were processed

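For each spot of each array the authors deposited a log2 ratio; base 2 is inferred, since exact logs of small whole-number ratios occur. Background correction, filtering and normalisation are not given in the sources used here; the array medians, from -3.33 to 0.951, show that arrays had not been centred. The upper limit, 16.61 (1074 values, 9 in Zfp spots), was treated as missing. Each of the 51 arrays was centred on the median of its non-control spots and the 2 spots of a probe, 22 positions apart, were averaged (8448 probes, less 528 controls). The tests came from limma 3.58.1 (R 4.3.3; data.table, version 1.17.8), in a single fit of the 51 arrays in which every amount had its mean, with at least 2 measured arrays per group, 2-sided tests, Benjamini-Hochberg adjustment over all features, adjusted p under 0.05. A slope on log2 of the amount used the 45 spiked arrays (at least 10 measured). Pairs of probes of a gene were compared with exact permutation tests, adjusted over the same-gene pairs of all features. These tests shuffle arrays without regard to the array sets. The script was checked on simulated data. Groups and replicate numbers came from the sample titles; whether replicates were separate cultures is not stated, so a p-value reflects array-to-array spread, possibly only technical. Arrays give no read depth, and their number limits the precision.

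The named probes are Zfp292 and Zfp330, up to 12 each way at 2 pmol, 2 each way at other amounts, 4 each way for the 0 pmol mean and the slope, the 3 largest and 3 smallest SDs at 0 pmol, the 3 features most like Zfp292 and Zfp330, and up to 4 called members of each other list. Members and lists were chosen with earlier results of these data known. Alternatives were no centring, arrays scaled to 1 spread (median absolute deviation), first or second spot only, values at the limit kept, only features measured on all 51 arrays, a replicate block, array weights, the array set as a covariate, the 2 groups compared only, and leaving out each array. The array sets are 6 Ward clusters on 1 minus the correlation over features other than Zfp probes and the 200 strongest at 2 pmol. Added after seeing the data were fits without the 1 pmol arrays and 0.75 pmol replicate 4, within a shared array set, on 0 pmol replicates 1 to 3 or 4 to 6 alone, and the alternatives for probe pairs. Figures used matplotlib 3.10.9 (Python 3.11.15).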

Additional observations from a re-analysis of the deposited data

Results flagged for a closer look

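In groups of 6 arrays, a lone array was looked for in 102 groups of 17 Zfp probes by the size of its gap to the others, of which chance flags about 5%; 16 were found. Zfp330 had 5 of them, each less negative than its group: 0.05 pmol replicate 5 (-3.62), 0.1 pmol replicate 5 (-4.17), 0.25 pmol replicate 3 (-1.34), 0.5 pmol replicate 4 (-3.90) and 0.75 pmol replicate 4 (-1.71). On 0.75 pmol replicate 4, whose paired spots agreed least, Zfp644 spot 5552 stood at 0.0705 (others 2.17 to 2.63) and Zfp655 spot 13030 at -0.33. On 0.5 pmol replicate 4 Zfp248 stood at 4.73, above its group. Zfp451 stood at -1.76 and Zfp280b at -1.08 on 0.1 pmol replicate 4. On 0.05 pmol replicate 6 Zfp444 stood at 1.42 (others -0.52 to -0.17) and Zfp354c at -0.28. Zfp946 stood at -0.34 on 0.75 pmol replicate 3. On unspiked arrays, Zfp941 stood at -2.76 (replicate 3), Zfp655 spot 13030 at -1.65 (replicate 2) and Zfp280b at -1.04 (replicate 6).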

How the results depend on the processing

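The main counts of called Zfp probes, by pmol, were 9 (0.025), 5 (0.05), 8 (0.1), 10 (0.15), 9 (0.2), 14 (0.25), 18 (0.5), 7 (0.75), 26 (1) and 16 (2), with 15 for the 0 pmol mean and 21 for the slope. The following moved by more than 1.5 times. The shares of all features under the alternatives are not given beside the counts in this section. These counts therefore describe the processing and do not show whether the family moved apart from the other features. Without centring, where the arrays' own medians enter every value, there were 4 (0.025), 4 (0.1), 5 (0.15), 5 (0.2), 5 (0.25), 95 (0.5), 2 (0.75), 7 (1) and 30 (2), with 98 for the 0 pmol mean and 2 for the slope. Scaling arrays to 1 spread left 2 (0.025), 3 (0.05) and 12 (1). The first spot alone gave 6 (0.15), and the second spot 9 (0.25), 11 (0.5), 16 (1) and 10 (2). Features measured on all 51 arrays, which are fewer, held 2 (0.025), 3 (0.05), 4 (0.1), 5 (0.2), 8 (0.25), 11 (0.5), 16 (1) and 9 (2), with 5 for the 0 pmol mean and 10 for the slope. Array weights raised most counts, to 15 (0.05), 19 (0.1), 35 (0.15), 19 (0.2), 36 (0.5), 11 (0.75) and 31 (2), with 29 for the 0 pmol mean and 40 for the slope, but left 10 (1). The array set as a covariate left 1 (0.025; Zfp330), 2 (0.05), 0 (0.15, 0.2 and 0.25), 1 (0.5), 15 (1) and 2 (2; Zfp330 and Zfp248), with 3 for the 0 pmol mean and 9 for the slope; where limma called 0, an unadjusted p under 0.05 gave 15 (0.15), 17 (0.2) and 12 (0.25). The fit of the compared groups only gave 14 (1), and the 0 pmol mean on replicates 1 to 3 alone gave 4. Except where fewer features or arrays enter, the cause was not tested. In the fit with the array set, the differences at 0.15, 0.2, 0.25, 0.5 and 2 pmol rest on the link through 0.1 pmol replicate 2. The 0 pmol mean of that fit is averaged over all 6 sets and is not the mean of the unspiked arrays. Without the 1 pmol arrays and 0.75 pmol replicate 4 there were 15 (2) and 26 for the slope.

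Leaving out each array in turn gave ranges of 5 to 9 (0.025), 5 to 6 (0.05), 3 to 10 (0.1), 6 to 11 (0.15), 6 to 10 (0.2), 10 to 13 (0.25), 12 to 20 (0.5), 5 to 7 (0.75), 15 to 26 (1) and 9 to 15 (2), with 11 to 16 for the 0 pmol mean and 14 to 24 for the slope. The count moved by over 1.5 times without 0.025 pmol replicate 3 (5 called), 0.1 pmol replicate 1 (5), 2 (3) or 3 (5), 0.15 pmol replicate 3 (6), 1 pmol replicate 1 (15) or 3 (17), 2 pmol replicate 1 (10), 2 (9) or 3 (9), and, for 2 pmol, 0 pmol replicate 4 (10).

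With the replicate number as a block, 10 Zfp probes passed at 2 pmol in place of 16, and the other counts stayed within 1.5 times. Each spiked array correlated with the unspiked array of the same number between -0.275 and 0.237 in its deviations. These pairs alone cannot show whether the number marks a shared block. In the larger groups the lower-numbered and higher-numbered replicates lay in different array sets. Whether the number stands for a shared condition was not tested.

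Many of the values of single probes under alternatives come from fits that leave out 1 array and share all the others. Of all 1971 values (86 results), 1744 kept direction and call, which includes results called in neither fit. The call was lost in 177 and gained in 3, and 47 changed sign, 36 of them called in neither fit. Without centring the called ones were Zfp292 spot 2524 at 0.5 pmol (1.47), Zfp451 (0.53), Zfp444 (0.28), Zfp354c (0.65) and Zfp652 (0.37) at 2 pmol, and the 0 pmol means of Zfp292 spot 2524 (-1.18), Zfp330 (-1.76), Zfp142 (-1.42), Zfp644 spot 12631 (-1.37) and Zfp319 (-1.48). With the array set as a covariate Zfp810 reversed at 2 pmol (-0.82, no call). Of the 36, 34 were of Zfp292 spot 2524. Its differences turned to 0.37 (0.1), 0.27 (0.25) and 0.18 (1) and its slope to 0.027 without centring; to -0.074 (0.025) and -0.075 (0.05) with 1 spread; to -0.13 (0.025), -0.25 (0.05) and -0.033 (0.15), with a slope of 0.0088, under array weights; to 0.28 (0.2), 0.13 (0.25) and 0.57 (1) with the array set; to -0.021 (0.15) on the first spot; and to -0.022 (0.05) and 0.039 (1) on the second. Leaving out each array gave it ranges of -0.13 to 0.35 (0.025), -0.14 to 0.15 (0.05), -0.054 to 0.14 (0.15), -0.40 to 0.038 (0.2), -0.54 to 0.30 (1) and -0.039 to 0.25 (2). The other 2 were of Zfp292 spot 12102: its slope under array weights (-0.048) and its 0 pmol term with the array set (1.93). That term is a fitted value averaged over all 6 array sets, whereas all 6 unspiked arrays of the probe were negative.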
